A study of Mus musculus with 8 samples.

Results

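The Hox genes encode homeodomain transcription factors and lie in 4 clusters, Hoxa on mouse chromosome 6, Hoxb on 11, Hoxc on 15 and Hoxd on 2. The members were chosen by name, as every protein-coding gene whose symbol is Hox with a cluster letter and a paralogue position. That gave 39 genes among the 37991 gene identifiers of the count table, of which 38 had a row (11 of Hoxa, 10 of Hoxb, 9 of Hoxc and 8 of Hoxd). The identifier that the name table pairs with Hoxd4 matched no row, and Hoxd4 was not analysed here. RNA came from Flt3- LSK cells of C57BL/6J bone marrow, Lin- Sca1+ Kit+ cells among which are blood stem cells and their first progeny, with 24000 cells sorted for each sample. One group was labelled Mut and described as Runx1 deficient, and the other was labelled WT or wild type and, in the design text, Runx1f/f, which means floxed Runx1. The labels name no Cre driver, deleted exon, age or sex, and do not say whether a sample was 1 animal or a pool. Each of the 2 Mut-labelled and 2 WT samples was read, by its name, as measured in a polyA-selected library (here mRNA) and in a total RNA library, which makes 8 libraries in 4 groups.

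Genes that share a position number in different clusters are paralogues, copies of 1 ancestral gene. In the embryo, genes with low numbers are active early and towards the head, and genes with high numbers later and towards the tail. In blood, Hox genes of the Hoxa and Hoxb clusters are used by stem and early progenitor cells and are switched off as cells mature. Their proteins bind DNA with the TALE cofactors Meis and Pbx, and in leukaemias with MLL fusions the Hoxa genes and Meis1 stay on.

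The promoter sequences of 4 members are shown because their levels differ most plainly between them: Hoxa9 was the most abundant Hox gene per length in WT mRNA libraries, Hoxb4 the most abundant of its cluster, Hoxb8 had mRNA counts in WT and none in Mut-labelled libraries, and Hoxb1 had no count in any library. They run from 250 bases before to 50 bases after the start of each gene, read 5′ to 3′, and come from RefSeq on GRCm38.p6, which is not the mm9 build of the count table. Positions are chr6:52227321-52227620 on the minus strand for Hoxa9, and on the plus strand chr11:96318017-96318316 for Hoxb4, chr11:96281655-96281954 for Hoxb8 and chr11:96365508-96365807 for Hoxb1. In the count table they are ENSMUSG00000038227 (Hoxa9), ENSMUSG00000038692 (Hoxb4), ENSMUSG00000056648 (Hoxb8) and ENSMUSG00000018973 (Hoxb1). Capitals mark the letters TGATNNAT, a core that PBX and HOX proteins bind together, on either strand.
Hoxa9: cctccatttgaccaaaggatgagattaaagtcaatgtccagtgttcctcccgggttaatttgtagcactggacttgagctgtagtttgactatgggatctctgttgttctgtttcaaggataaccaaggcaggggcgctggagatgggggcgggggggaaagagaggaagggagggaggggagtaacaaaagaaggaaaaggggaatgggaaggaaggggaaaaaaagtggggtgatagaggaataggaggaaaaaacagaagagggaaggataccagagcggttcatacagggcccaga
Hoxb4: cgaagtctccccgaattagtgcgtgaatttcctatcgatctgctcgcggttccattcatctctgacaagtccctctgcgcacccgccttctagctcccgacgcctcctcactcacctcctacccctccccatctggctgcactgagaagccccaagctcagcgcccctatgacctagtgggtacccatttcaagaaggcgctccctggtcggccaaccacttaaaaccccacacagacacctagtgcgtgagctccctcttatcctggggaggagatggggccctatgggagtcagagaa
Hoxb8: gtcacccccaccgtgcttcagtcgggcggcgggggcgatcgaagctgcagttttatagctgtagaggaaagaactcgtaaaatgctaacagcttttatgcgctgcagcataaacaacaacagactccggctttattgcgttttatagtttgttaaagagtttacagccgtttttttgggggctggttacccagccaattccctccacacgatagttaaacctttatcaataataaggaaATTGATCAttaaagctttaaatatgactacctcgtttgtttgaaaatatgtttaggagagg
Hoxb1: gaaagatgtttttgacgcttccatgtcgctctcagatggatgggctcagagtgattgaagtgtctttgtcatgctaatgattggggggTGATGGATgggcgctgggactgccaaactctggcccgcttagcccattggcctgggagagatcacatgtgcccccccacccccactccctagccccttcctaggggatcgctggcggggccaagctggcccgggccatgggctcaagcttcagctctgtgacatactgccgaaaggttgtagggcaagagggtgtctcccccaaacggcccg
The Hoxb8 match began 11 bases before the gene's start and the Hoxb1 match 162 bases before it, and neither the Hoxa9 nor the Hoxb4 window held these letters. RefSeq gave 24 such promoters for 22 of the Hox genes, of which 4 held TGATNNAT, against 8.85% of all 32851 promoters. The RUNX core TGTGGT, searched on both strands and not overlapping with the other motif in any printed sequence, was in 1 of the 24, that of Hoxd10, and in 16.8% of all promoters. A match or its absence describes these letters in this window and nothing more.

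Gene counts were 35096252 to 37924699 in the mRNA libraries and 967694 to 1218437 in total RNA libraries, whose ribosomal RNA took 93.3 to 94.5% of all counts. Values are CPM (gene counts over the library's total after TMM scaling, which corrects for library makeup), and a floor of 3 counts stood for 0.0784 to 0.0857 CPM in mRNA libraries and 2.47 to 3.17 CPM in total RNA libraries. Groups were compared with edgeR's quasi-likelihood test over all genes, called at a Benjamini-Hochberg adjusted p under 0.05, and each log2 fold change is Mut-labelled over WT. Runx1 itself was at 749 and 941 CPM in the mRNA libraries labelled Mut and at 200 and 207 CPM in WT mRNA libraries, a direction that goes against the label. Reads summed along Runx1 do not show whether an exon is missing, so every direction here rests on the labels. The stem and progenitor markers Kit (953 and 1099 CPM in Mut-labelled, 890 and 883 CPM in WT mRNA libraries) and Ly6a (32.4 and 26.0 CPM against 23.7 and 38.5 CPM) were present in all 4. Whether both samples of a group are separate animals is not stated, so p-values cover only how these samples vary, and that spread may be technical.

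Expression of the family was held by the middle of Hoxa and by Hoxb4. Of the 38 genes, 28 had a count in at least 1 mRNA library, 19 in all 4, and 18 passed the filter on low counts: 9 of Hoxa, 8 of Hoxb, 1 of Hoxc and 0 of Hoxd. The 10 others with counts never exceeded 22 in an mRNA library, and 5 genes had counts in 1 mRNA library alone. The 10 genes at 0 in all 8 libraries were Hoxb1, Hoxc11, Hoxc12, Hoxc13, Hoxd1, Hoxd3, Hoxd9, Hoxd11, Hoxd12 and Hoxd13. A count of 0 allows up to 3 counts in a library, by counting error alone.

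Levels of different genes were compared per kilobase of exon. In Mut-labelled mRNA libraries Hoxa6 stood at 16.8 ± 6.94, Hoxb4, which expands stem cells when forced on, at 14.3 ± 1.88, and Hoxa9, a driver of progenitor self-renewal and of myeloid leukaemia, at 11.7 ± 3.71 CPM per kb (SD, n = 2 each). Hoxa7 followed at 10.8 ± 2.32 and Hoxa5 at 8.87 ± 0.726 CPM per kb (SD, n = 2 each). In WT mRNA libraries Hoxa9 stood at 19.3 ± 4.32 CPM per kb (SD, n = 2). Hoxa6 followed at 18.0 ± 4.05, Hoxa7 at 14.3 ± 2.05, Hoxb4 at 12.7 ± 1.598, and Hoxa5 at 11.9 ± 2.72 CPM per kb (SD, n = 2 each). Differences between neighbours among these 5 were within their spread in both groups. Hoxa10 stood at 7.48 ± 0.211 and Hoxa3 at 2.83 ± 0.914 CPM per kb in WT (SD, n = 2 each). By this length, steps of more than the spread separated Hoxa5 from Hoxa10 and Hoxa10 from Hoxa3. The next by this length was Hoxb6, at 1.66 CPM per kb in WT. With the length of the principal transcript in place of all exons, Hoxa9 came first in both groups, at 20.2 CPM per kb in Mut-labelled and 33.4 in WT mRNA libraries, and Hoxa7 came to 15.5 and 20.4, so the difference in order between groups depends on the length used. By that length Hoxa10 stood at 9.53, Hoxa3 at 6.57 and the next gene, Hoxb5, at 1.97 CPM per kb in WT mRNA libraries. The place of the lower step and the gene after it therefore also depend on the length used. In total RNA libraries Hoxa6 came first by either length, at 20.4 ± 3.13 CPM per kb in Mut-labelled and 30.1 ± 11.6 in WT samples, and Hoxa9 stood at 6.19 ± 1.25 and 9.57 ± 1.19 per kilobase of exon (SD, n = 2 each).

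**Figure D1:**
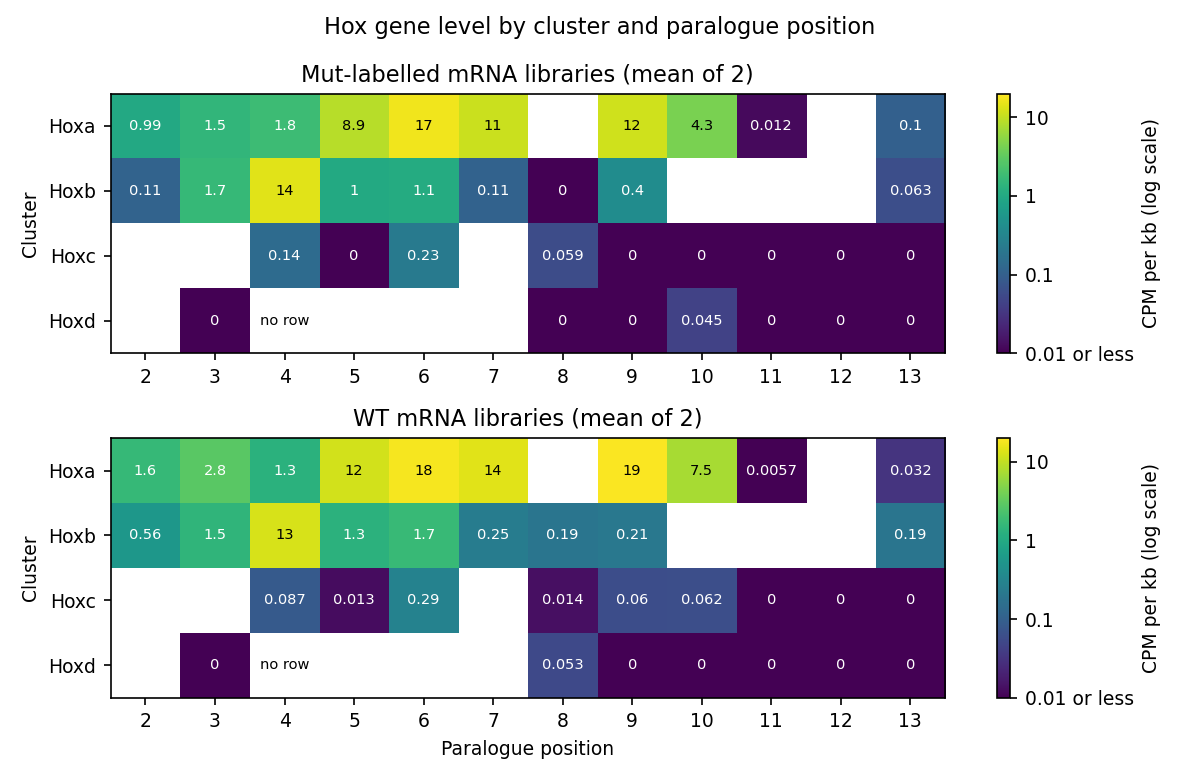
Mean level of each Hox gene in the 2 Mut-labelled (top) and 2 WT (bottom) mRNA libraries, in CPM per kilobase of exon on a log colour scale, by cluster (rows) and paralogue positions 2 to 13 (columns). Blank cells hold no gene, "no row" marks Hoxd4, and the high cells are Hoxa5 to Hoxa10 and Hoxb4, while Hoxc and Hoxd are at or near 0.

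Within a position, 1 paralogue usually carried the signal. At position 4, Hoxb4 stood at 14.3 CPM per kb in Mut-labelled and 12.7 in WT mRNA libraries, against 1.81 and 1.29 for Hoxa4 and 0.141 and 0.0868 for Hoxc4. At position 9 the order of clusters was the other way round, with Hoxa9 at 11.7 and 19.3 CPM per kb and Hoxb9 at 0.401 and 0.209 in Mut-labelled and WT mRNA libraries. The same held at positions 5, 6 and 7, where the Hoxa gene was above the Hoxb gene: Hoxa7 stood at 10.8 and 14.3 CPM per kb, and Hoxb7 at 0.111 and 0.247. At position 3 both were used, Hoxa3 at 1.49 and 2.83 and Hoxb3 at 1.65 and 1.46 CPM per kb in Mut-labelled and WT mRNA libraries. Per length of the principal transcript, Hoxa3 stood at 3.46 and 6.57 and Hoxb3 at 2.20 and 1.94, so Hoxa3 was above Hoxb3 in both groups by that length. Antisense genes share 18.2% of the exon bases of Hoxa3 and 52.9% of those of Hoxb3.

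In the mRNA libraries 0 of the 18 Hox genes tested passed edgeR's test, against 3.64% of all 17128 genes called (1.75% higher and 1.89% lower). DESeq2 called 2 of them, Hoxb8 and Hoxb2, both lower, against 9.43% of all genes called by DESeq2 (5.04% lower), so that count is near the share over all genes. At an unadjusted edgeR p under 0.05 there were 5, all lower in Mut-labelled libraries, while 15.7% of all genes were below that p in either direction and 8.38% were below it and lower. Of the 18, 13 had a negative log2 fold change (51.4% of all genes tested did), with a median of -0.41 beside -0.01 for all genes. Both Mut-labelled libraries were below both WT libraries for 9 of the 18 (23.1% of all genes tested) and above both for 2 (21.4% of all genes tested). Hoxb8, Hoxb7 and Hoxc6 passed the filter on low counts through their WT libraries alone, which by itself favours a negative value, so these counts describe the genes that passed and support no direction.

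Hoxb8, which can hold mouse myeloid progenitors in growth when forced on, had 0 and 0 counts in Mut-labelled mRNA libraries, against 19 and 19 counts (0.50 and 0.497 CPM) in WT mRNA libraries. The groups did not overlap, and the WT mean was 5.95-fold above a floor of 3 counts per library in Mut-labelled libraries (edgeR adjusted p = 0.126, DESeq2 adjusted p = 0.0354). That ratio allows no counting error in WT, so it is not a strict lower limit. Since Hoxb8 was tested only because its WT counts were high enough, these p-values are given as a description. Total RNA gave Hoxb8 1 and 0 counts in Mut-labelled and 0 and 0 in WT samples, below what that depth can compare.

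Hoxb2, a hindbrain patterning gene, was at 0.514 and 0.273 CPM (18 and 10 counts) in Mut-labelled mRNA libraries, against 2.08 and 1.80 CPM (79 and 69 counts) in WT mRNA libraries. The groups were well apart, and the log2 fold change was -2.29 (SE 0.59, edgeR adjusted p = 0.117, DESeq2 adjusted p = 0.0361). Its total RNA counts were 0 and 0 in Mut-labelled and 1 and 2 in WT samples. Of its exon bases, 27.3% are shared with the antisense gene Hoxb3os in GENCODE M21, and Hoxb3os itself stood at 2.83 and 3.39 CPM in Mut-labelled and 7.66 and 5.80 CPM in WT mRNA libraries (log2 fold change -1.11, edgeR adjusted p = 0.145). The library kit named in the labels does not mark strand, so reads on the shared bases cannot be told apart.

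Hoxa9 was at 50.5 and 79.8 CPM in Mut-labelled mRNA libraries, against 90.8 and 125 CPM in WT mRNA libraries. The groups did not overlap, and the log2 fold change was -0.73 (SE 0.26, edgeR adjusted p = 0.255). Leaving out Mut-labelled replicate 1 gave -0.44 and leaving out the second gave -1.09. Dropping the first WT library gave -0.94 and dropping the second -0.47, and edgeR adjusted p ran from 0.0717 to 0.617 over these fits. In total RNA libraries Hoxa9 was at 29.6 and 39.4 CPM in Mut-labelled and 48.7 and 58.1 CPM in WT samples, which gave -0.61 on the log2 scale (SE 0.28, edgeR adjusted p = 0.296). Hoxa9 was therefore lower in both Mut-labelled samples in either kind of library, without passing the threshold.

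Hoxa10, the neighbour of Hoxa9 and a regulator of myeloid and megakaryocyte differentiation, was at 10.5 and 17.6 CPM in Mut-labelled mRNA libraries, against 24.0 and 24.9 CPM in WT mRNA libraries. Its log2 fold change was -0.80 (SE 0.29, edgeR adjusted p = 0.253), -0.47 on dropping the first Mut-labelled library and -1.22 on dropping the second (edgeR adjusted p = 0.427 and 0.0774). The total RNA libraries went the other way, with 14.8 and 14.8 CPM (14 and 18 counts) in Mut-labelled and 8.59 and 13.8 CPM (9 and 14 counts) in WT samples, which gave 0.40 on the log2 scale (SE 0.46, edgeR adjusted p = 0.780). Under ERCC scaling this turned to -0.68, but the median of all genes there moved to -1.10, so Hoxa10 stayed above that median. Hoxa10 passed the filter in total RNA through Mut-labelled libraries alone, which by itself favours a positive value. The difference between kinds of library for Hoxa10, -1.25 on the log2 scale, did not pass (interaction, edgeR adjusted p = 0.9999, unadjusted p = 0.0357). That fit treats all 8 libraries as separate samples. With libraries of 1 name set as 1 block the value was -1.26, which did not pass either (edgeR adjusted p = 0.562, unadjusted p = 0.0112).

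Hoxa3, needed for the thymus and other pharyngeal organs, was at 7.91 and 10 CPM in Mut-labelled mRNA libraries, against 13.1 and 20.9 CPM in WT mRNA libraries. The log2 fold change was -0.93 (SE 0.31, edgeR adjusted p = 0.215), and it was -0.54 without WT replicate 2. Hoxa3 missed the filter in total RNA, with 1 and 7 counts in Mut-labelled and 10 and 17 counts in WT samples. Antisense genes share 18.2% of its exon bases.

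**Figure D2:**
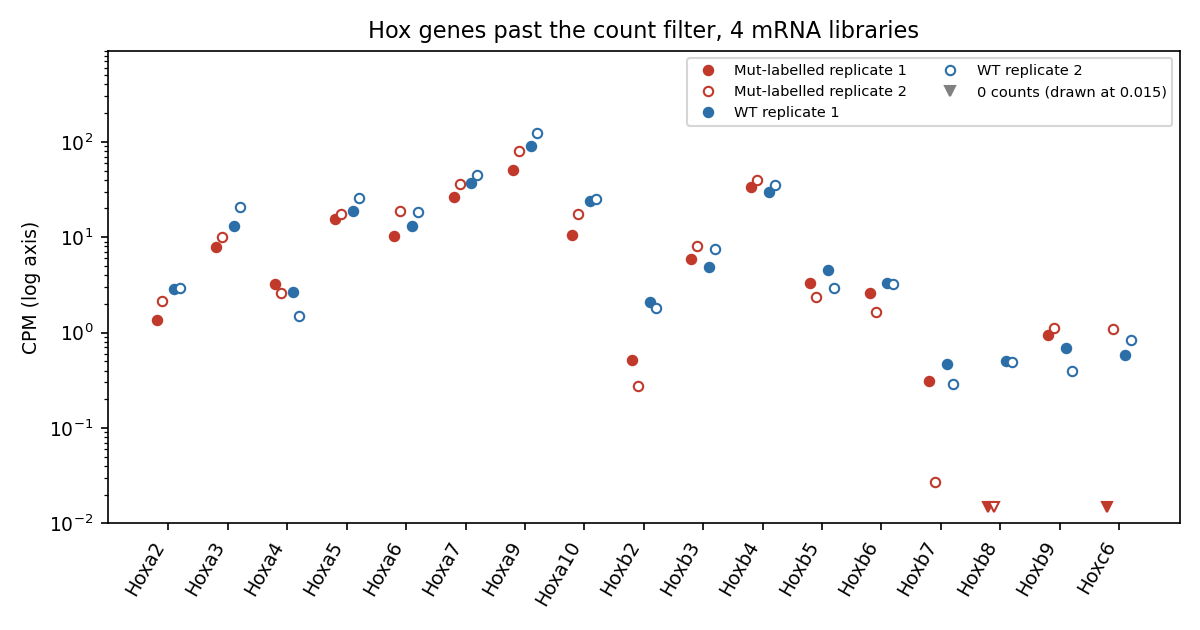
CPM on a log axis of 17 of the 18 Hox genes that passed the filter, in each Mut-labelled (red) and WT (blue) mRNA library, filled for replicate 1 and open for replicate 2, with triangles for 0 counts. Hoxb8 and Hoxb2 are lower in both Mut-labelled libraries, Hoxb4 overlaps between groups, and replicate 2 lies above replicate 1 for many Hoxa genes in both groups.

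Among the other Hoxa genes, Hoxa7, at 26.5 and 35.9 CPM in Mut-labelled and 36.9 and 45.2 CPM in WT mRNA libraries, had a log2 fold change of -0.40 (edgeR adjusted p = 0.483). Hoxa5 was at 15.7 and 17.6 CPM against 18.8 and 26.0 CPM (log2 fold change -0.43, edgeR adjusted p = 0.498). For both genes the groups lay apart but nearly touched. Hoxa6 was at 10.4 and 18.9 CPM in Mut-labelled and 13.2 and 18.2 CPM in WT mRNA libraries, so that the groups overlapped fully (log2 fold change -0.10, edgeR adjusted p = 0.949). Hoxa2, a hindbrain and branchial arch gene, was at 1.37 and 2.16 CPM in Mut-labelled and 2.84 and 2.93 CPM in WT mRNA libraries (log2 fold change -0.71, edgeR adjusted p = 0.513). Hoxa4 was at 3.20 and 2.57 CPM against 2.63 and 1.49 CPM, with overlapping groups and a positive value of 0.48 (edgeR adjusted p = 0.725).

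In Hoxb, Hoxb4 was at 33.4 and 40.2 CPM in Mut-labelled and 29.7 and 35.5 CPM in WT mRNA libraries, with overlapping groups and 0.17 as log2 fold change (SE 0.18, edgeR adjusted p = 0.782). In total RNA libraries it was at 21.1 and 19.7 CPM in Mut-labelled and 27.7 and 29.5 CPM in WT samples, which gave -0.49 on the log2 scale (SE 0.34, edgeR adjusted p = 0.570). The interaction of 0.62 did not pass (edgeR adjusted p = 0.9999, unadjusted p = 0.0923). With libraries of 1 name set as 1 block it was 0.63 (edgeR adjusted p = 0.978, unadjusted p = 0.0861). Hoxb3 was at 5.97 and 8.07 CPM in Mut-labelled and 4.92 and 7.48 CPM in WT mRNA libraries (log2 fold change 0.18, edgeR adjusted p = 0.899), and antisense Hoxb3os shares 52.9% of its exon bases. Hoxb5, a marker of long-term stem cells in mouse, was at 3.28 and 2.38 CPM in Mut-labelled and 4.56 and 2.90 CPM in WT mRNA libraries (log2 fold change -0.40, edgeR adjusted p = 0.763). Hoxb6 was at 2.57 and 1.64 CPM against 3.32 and 3.22 CPM (log2 fold change -0.63, edgeR adjusted p = 0.553), with groups that did not overlap. Hoxb9 lay above WT in both Mut-labelled libraries, at 0.943 and 1.12 CPM against 0.685 and 0.392 CPM (log2 fold change 0.93, edgeR adjusted p = 0.632). Hoxb7 had 11 and 1 counts in Mut-labelled and 18 and 11 counts in WT mRNA libraries (log2 fold change -1.15, edgeR adjusted p = 0.792), and its value was -3.65 on dropping the first Mut-labelled library and -0.27 on dropping the second. Under ERCC scaling, which moved the median of all genes to -0.38 in mRNA libraries, Hoxb3 and Hoxb4 turned to -0.21 and -0.19. It also changed the split of calls over all genes to 16 higher and 154 lower, against 300 higher and 324 lower under TMM.

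Hoxc6, the 1 tested member outside Hoxa and Hoxb, had 0 and 40 counts in Mut-labelled and 22 and 32 counts in WT mRNA libraries. Its 2 Mut-labelled libraries therefore lay on both sides of WT, and leaving out replicate 1 turned its log2 fold change, -0.37 (edgeR adjusted p = 0.957), into 0.62. Counts of this kind, present in some libraries of a group and 0 in others, were also seen at lower level in the untested members: in mRNA, Hoxc9 had 11 counts in WT replicate 1 alone, Hoxc10 9 in WT replicate 2 alone, Hoxd8 11 in WT replicate 1 alone and Hoxd10 6 in Mut-labelled replicate 2 alone. Hoxb13, a posterior gene, had 3 and 7 counts in Mut-labelled and 22 and 10 counts in WT mRNA libraries, and Hoxa13 8 and 10 against 2 and 4. The rest were Hoxa11 (0 and 2 counts in Mut-labelled, 0 and 1 in WT mRNA libraries), Hoxc4 (9 and 17 against 8 and 9), Hoxc5 (0 and 0 against 3 and 0) and Hoxc8 (5 and 7 against 0 and 3).

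**Figure D3:**
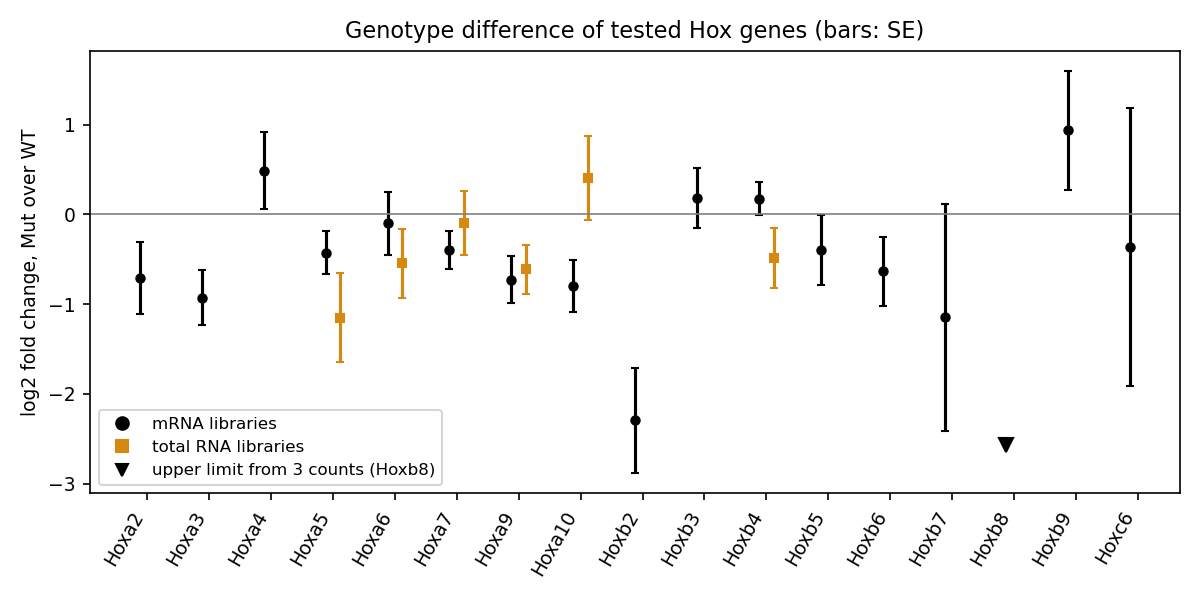
Log2 fold change of Mut-labelled over WT for 17 of the 18 tested Hox genes, with SE bars, in mRNA (black circles) and total RNA (orange squares) libraries. The triangle sets Hoxb8 at a floor of 3 counts per Mut-labelled library against its WT mean, without counting error in WT. Hoxb2 and Hoxb8 lie lowest, Hoxa5 to Hoxa10 lie below 0 in mRNA libraries, and Hoxa10 and Hoxb4 have opposite signs in the 2 kinds of library.

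By position, all 8 tested genes at positions 5 to 8 had negative values in mRNA libraries (median -0.41, the same with Hoxb8 at its floor), but 3 of them, Hoxb7, Hoxb8 and Hoxc6, had passed the filter through WT alone. At positions 1 to 4, 3 of 7 were negative (median 0.17), and at positions 9 to 13, 2 of 3 (median -0.73). By cluster, 7 of 9 Hoxa genes (median -0.43) and 5 of 8 Hoxb genes (median -0.52) were negative, without any that passed edgeR's test in either. These counts describe few genes measured in the same libraries, and 7 of the 18 share exon bases with a counted gene that is not a member. No difference between positions or clusters was tested.

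Summed over all its genes, Hoxa came to 127 and 185 CPM in Mut-labelled and 202 and 265 CPM in WT mRNA libraries. The groups lay apart, with a log2 ratio of means of -0.58, close to the spread between libraries of 0.48 (the SDs of the log2 sums in both groups combined). The ratio was -0.34 on dropping the first Mut-labelled library, -0.88 on dropping the second and -0.36 on dropping the second WT library. Hoxb came to 47.0 and 53.9 CPM in Mut-labelled and 46.8 and 52.3 CPM in WT mRNA libraries, which overlapped fully (log2 ratio 0.03, spread 0.18). The ratio of the Hoxa sum to the Hoxb sum, which does not depend on scaling, was therefore 2.69 and 3.44 in Mut-labelled and 4.32 and 5.06 in WT mRNA libraries. The total RNA libraries did not show that separation: the ratio was 3.35 and 3.76 in Mut-labelled and 2.81 and 3.68 in WT samples. There Hoxa came to 91.9 and 114 CPM against 129 and 170 CPM (log2 ratio -0.54, spread 0.36), and Hoxb to 27.5 and 30.4 CPM against 45.8 and 46.3 CPM (log2 ratio -0.67, spread 0.10). Both sums were thus lower in both Mut-labelled total RNA libraries. The Hoxb sums there rest on 26 and 37 counts in Mut-labelled and 48 and 47 counts in WT samples. With 2 samples against 2 an exact two-sided permutation test cannot go below p = 0.333, so none was run on the sums. Under ERCC scaling the Hoxb ratio in mRNA libraries was -0.34.

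**Figure D4:**
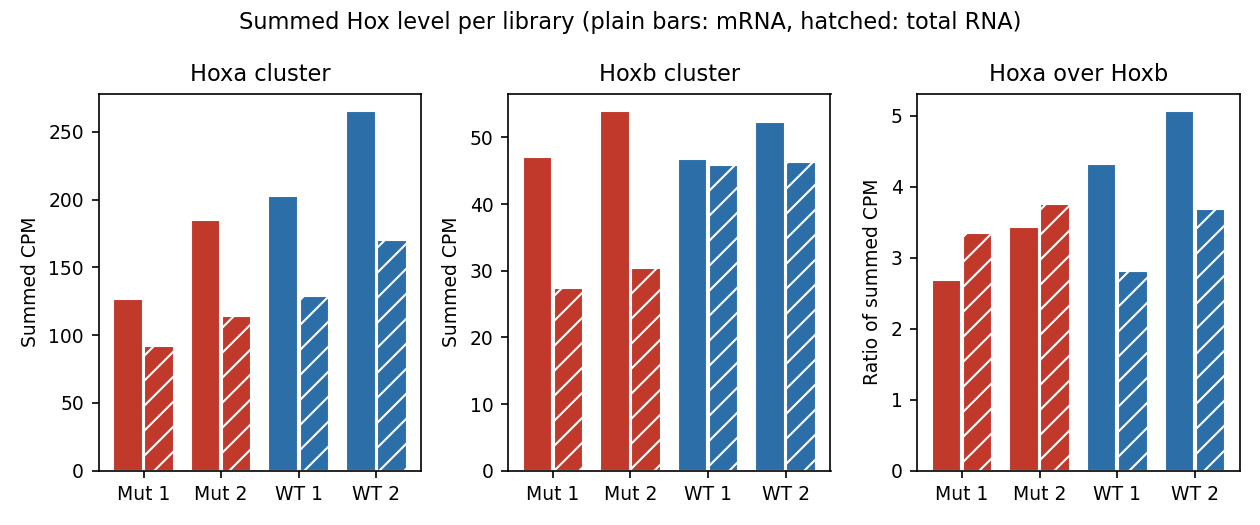
Summed CPM of the Hoxa and Hoxb clusters and the ratio of the sums in each library, Mut-labelled in red and WT in blue, plain bars for mRNA and hatched bars for total RNA libraries. The Hoxa sum is lower in both Mut-labelled libraries of each kind, and the Hoxb sum is lower in both Mut-labelled total RNA libraries and overlaps in mRNA libraries. The Hoxa over Hoxb ratio is lower in both Mut-labelled mRNA libraries and overlaps between groups in total RNA libraries.

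Depth limited the total RNA libraries. In them 6 Hox genes passed the filter and 0 were called by edgeR or by DESeq2, against 4.23% of all 10546 genes called by edgeR (2.55% higher and 1.68% lower) and 1.89% by DESeq2 (0.569% lower). Hoxa5 passed the filter there through WT alone and Hoxa10 through Mut-labelled libraries alone. Of these 6, 5 had negative values (50.2% of all genes tested). Both Mut-labelled libraries were below both WT libraries for 3 (21.4%) and above for 1 (22.5%). Those with an unadjusted edgeR p under 0.05 were Hoxa9 and Hoxa5, both lower (14.8% of all genes, 7.13% lower). Hoxa5 was at 6.34 and 8.22 CPM (6 and 10 counts) in Mut-labelled and 13.4 and 19.7 CPM (14 and 20 counts) in WT samples, which gave -1.15 on the log2 scale (SE 0.497, edgeR adjusted p = 0.266), and ERCC scaling, which moved the median of all genes there to -1.10 and the calls to 13 higher and 360 lower (269 and 177 under TMM), gave -2.29 (edgeR adjusted p = 0.0473). Hoxa6 was at 15.8 and 19.7 CPM against 19.1 and 33.5 CPM (log2 fold change -0.55, edgeR adjusted p = 0.580) and Hoxa7 at 22.2 and 21.4 CPM against 25.8 and 20.7 CPM (-0.10, edgeR adjusted p = 0.949). The interaction of genotype and kind of library called 0 of 17416 genes (686 or 3.94% at an unadjusted p under 0.05, with Hoxa10 among them). With the sorted sample as a block, since libraries of 1 name were read as 1 sample, edgeR called 111 genes (0.637%, and 5.62% at an unadjusted p under 0.05), of which 0 were Hox genes.

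Among the TALE cofactors, which give Hox proteins their DNA specificity, 1 of 8 tested genes rose in mRNA libraries and 0 fell (3.64% of all genes called). Pbx3 was at 28.6 and 25.0 CPM in Mut-labelled and 11.2 and 12.6 CPM in WT mRNA libraries, which gave 1.18 on the log2 scale (SE 0.20, edgeR adjusted p = 0.0425). The call was lost on dropping either Mut-labelled library (edgeR adjusted p = 0.0831 and 0.062) or the first WT library (0.131), and under ERCC scaling (0.999). Meis1 was at 387 and 411 CPM against 303 and 310 CPM (log2 fold change 0.38, edgeR adjusted p = 0.236). Meis1 was above WT in both Mut-labelled libraries.

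Of 21 MLL and histone acetyltransferase genes, many of which keep Hox genes active, edgeR called 0 in the mRNA data (3.64% of all genes called). For a list this short 0 calls is near that share and does not set the list apart. The 1 with an unadjusted p under 0.05 (15.7% of all genes) was Mllt3, a partner of MLL in leukaemia fusions (log2 fold change 0.79, edgeR adjusted p = 0.0885). The median was 0.06. Kmt2a, which encodes MLL, was at 336 and 680 CPM in Mut-labelled and 333 and 565 CPM in WT mRNA libraries (log2 fold change 0.18, edgeR adjusted p = 0.915), so the replicates differed more than the group means. Kmt2b was at 195 and 287 CPM against 195 and 251 CPM (0.11, edgeR adjusted p = 0.908). In total RNA libraries Mllt3 rose by 0.94 (edgeR adjusted p = 0.015). Of 29 Polycomb genes, which keep Hox genes silent, edgeR called 0 in the mRNA data, near the 3.64% over all genes. Of these, 1 had an unadjusted p under 0.05 (15.7% of all genes), and the median was 0.01. In the total RNA data edgeR called 0 of 28, near the 4.23% over all genes. There 4 had an unadjusted p under 0.05, near the 14.8% over all genes; they were Jarid2, Phf19, Cbx6 and Asxl2, named after their values were seen. The most abundant, Asxl1 and Cbx6, had log2 fold changes of 0.21 and -0.39 (edgeR adjusted p = 0.619 and 0.206).

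Of 7 tested Cdx and retinoic acid genes, inputs that act on Hox transcription in the embryo, 2 rose in mRNA libraries (1.75% of all genes were called higher). Rxra, a nuclear receptor gene, was at 66.2 and 78.5 CPM in Mut-labelled and 27.2 and 28.1 CPM in WT mRNA libraries (log2 fold change 1.39, SE 0.15, edgeR adjusted p = 0.0125). Rara, its partner, was at 42.6 and 43.4 CPM against 24.7 and 23.9 CPM (0.82, SE 0.15, edgeR adjusted p = 0.05, just under the threshold) and was no longer called once any 1 library was dropped (adjusted p = 0.103 to 0.172). Both lost their calls under ERCC scaling (0.999 each), and in total RNA neither passed (edgeR adjusted p = 0.201 for Rxra and 0.423 for Rara). Rxrb, the most abundant, had a log2 fold change of 0.21 (edgeR adjusted p = 0.607). Cdx1 and Cdx4 had 0 counts in all 8 libraries.

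Of 14 tested genes that flank the clusters edgeR called 0 in the mRNA data, where the median was 0.00. That count is near the 3.64% of all genes called. The 1 with an unadjusted p under 0.05 (15.7% of all genes) was Skap2, a gene beside the Hoxa cluster that is named after its values were seen. It was at 170 and 166 CPM in Mut-labelled and 127 and 122 CPM in WT mRNA libraries (log2 fold change 0.44, edgeR adjusted p = 0.135). Evx1 and Evx2, homeobox genes beyond the high-numbered ends of Hoxa and Hoxd, had 0 counts in all 8 libraries. The most abundant, Cbx5 and Cbx1, had log2 fold changes of -0.20 and -0.04 (edgeR adjusted p = 0.624 and 0.951). Of the noncoding genes inside the clusters, 5 of 16 with a row were tested and edgeR called 0 (3.64% of all genes called). Hoxb3os alone had an unadjusted p under 0.05 (15.7% of all genes). The 5 tested genes had a median log2 fold change of -1.11. Summed over the list, noncoding genes were at 7.20 and 9.60 CPM in Mut-labelled and 14.5 and 12.2 CPM in WT mRNA libraries. In total RNA libraries the sums overlapped, at 7.40 and 9.04 CPM in Mut-labelled and 6.68 and 10.8 CPM in WT samples. Hoxaas3, which shares bases with Hoxa7, was at 1.94 and 3.01 CPM in Mut-labelled and 2.58 and 3.16 CPM in WT mRNA libraries (log2 fold change -0.21, edgeR adjusted p = 0.895). The cluster miRNA genes Mir10a, Mir10b, Mir196a-1, Mir196a-2, Mir196b and Mir615 and the noncoding genes Hottip, Hotair and Haglr had 0 counts in all 8 libraries.

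Of 15 genes reported as targets of Hoxa9 and Meis1, 1 rose and 2 fell in mRNA libraries, with a median of 0.14 (1.75% of all genes were called higher and 1.89% lower). In total RNA libraries 1 rose and 3 fell (2.55% and 1.68% of all genes). Mecom, a stem cell transcription factor gene, was at 17.9 and 15.0 CPM in Mut-labelled and 63.8 and 73.4 CPM in WT mRNA libraries (log2 fold change -2.06, SE 0.17, edgeR adjusted p = 0.00707), and fell by 2.25 in total RNA libraries (edgeR adjusted p = 2.1e-04). Bcl2, a survival gene, was at 46.0 and 36.7 CPM against 118 and 131 CPM (-1.59, SE 0.16, edgeR adjusted p = 0.00966), and fell by 1.14 in total RNA libraries (edgeR adjusted p = 0.0192). Pbx3, described above, was the gene that rose. Under ERCC scaling Mecom and Bcl2 had log2 fold changes of -2.52 and -2.05, without a call (edgeR adjusted p = 0.593 and 0.999). The most abundant, Lmo2 and Cd34, had log2 fold changes of -0.64 and 0.14 (edgeR adjusted p = 0.105 and 0.813), and in total RNA libraries Lmo2 fell by 0.63 (edgeR adjusted p = 0.0491) and Cdk6 rose by 0.82 (edgeR adjusted p = 0.0029).

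**Figure D5:**
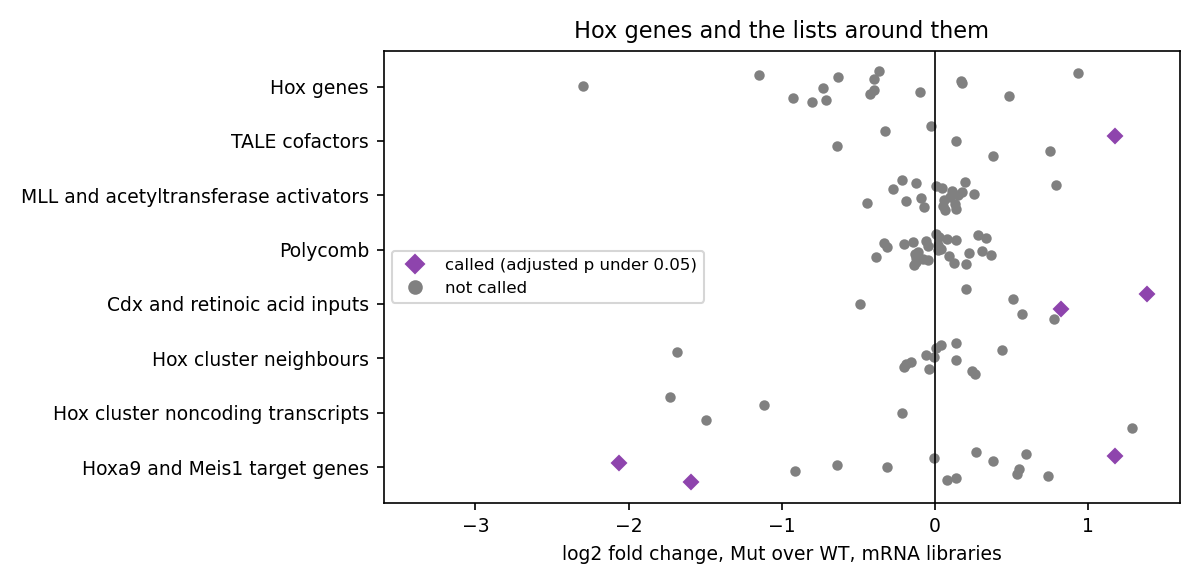
Log2 fold change of Mut-labelled over WT in mRNA libraries for tested genes of the Hox family (without Hoxb8) and of 7 lists of cofactors, regulators, neighbours, noncoding transcripts and targets, with genes called by edgeR as purple diamonds. Calls appear among the cofactors, retinoic acid receptors and targets, and none appear among the Hox, MLL, Polycomb, neighbour or noncoding genes. With 3.64% of all genes called, the absence of calls in lists this short does not set those lists apart.

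In bulk RNA, fewer cells of a type and less RNA per cell cannot be told apart. Summed markers of several other cell types lay apart between the groups in mRNA libraries, while the neutrophil and B cell sums overlapped. Counts of calls among the markers in mRNA libraries stand against 1.75% of all genes called higher and 1.89% lower. Summed erythroid markers were 411 and 275 CPM in Mut-labelled and 1337 and 1050 CPM in WT mRNA libraries, with 5 of 11 tested lower. Mast cell and basophil markers were 549 and 692 CPM against 164 and 111 CPM, with 2 of 7 higher and 2 lower. Their median log2 fold change was -3.22, so the higher sum does not describe all of them. Neutrophil markers were 2545 and 1261 CPM against 1680 and 1430 CPM, with 2 of 12 higher, a median log2 fold change of 2.79 and 10 at an unadjusted edgeR p under 0.05, and in total RNA libraries 6 of 8 were called higher (median 2.67). The neutrophil sum is led by Mpo and Elane, which early progenitors also express. B cell markers were 344 and 1441 CPM against 923 and 6968 CPM, with 1 of 10 lower, and T and NK cell markers 15.1 and 13.4 CPM against 32.2 and 32.8 CPM, with 1 of 7 lower. Stromal markers, of a cell type that also uses Hox genes, were 213 and 167 CPM against 251 and 218 CPM, with 1 of 12 lower and Lum at 0 in every mRNA library. Endothelial markers were 563 and 549 CPM against 588 and 579 CPM, with 1 of 9 higher and 1 lower, and the 14 LSK markers 5428 and 5676 CPM against 4281 and 4244 CPM, with 2 higher and 1 lower. The LSK sum is led by Kit and Itga2b. The median log2 fold change of the LSK markers was 0.10, so the higher sum does not describe all of them. The part of all these markers in the Hox values was not tested. In both groups replicate 2 was above replicate 1 for 10 of the 18 tested Hox genes, most of them of Hoxa.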

How the data were processed

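RNA-seq was analysed from 8 libraries of 4 sorted samples, 2 labelled Mut and 2 WT, grouped by title. The authors deposited raw counts, whole numbers per gene and library. Per the submitters' processing notes the build was mm9 and TopHat, featureCounts and edgeR were named, without version or role. The annotation release, strand setting and treatment of multiply mapped reads are not stated in the labels. ERCC (92) and rRNA (3) entries were left out of library sizes and tests. Symbols came from GENCODE M21 (32919 identifiers matched), as did exon lengths and shared exon bases; coordinates of the table were not used.

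Counts were tested with edgeR 4.0.16 (R 4.3.3; TMM, filterByExpr, two-sided quasi-likelihood test, Benjamini-Hochberg over all genes tested), within each kind of library without a block, and for the interaction over all 8. SE is the log2 fold change divided by the square root of F. The script was tested on simulated data. Alternatives were RLE and ERCC scaling, no filter, DESeq2 1.42.0, a replicate block and leaving out each library. Libraries of a group differed beyond sampling noise (chi-square per degree of freedom 2.79 to 70.0). Libraries of 1 name deviated together between kinds (correlation over genes 0.455 for Mut-labelled, 0.396 for WT). Same-numbered Mut-labelled and WT mRNA libraries, which are different samples, gave 0.413. These correlations therefore cannot show that 2 libraries come from 1 sample, and the sorted sample as a block rests on the names alone.

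The members and the 15 gene lists were chosen with earlier results of these data known. Named by rule were all Hox genes, and of each list the genes called and the 2 most abundant in mRNA libraries; marker lists are given by sums and counts. The values of some genes that these rules name are not reported here; counts and sums include them. Intervals and floors cover counting error only.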

Additional observations from a re-analysis of the deposited data

How the results depend on the processing

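The count of 0 Hox genes called by edgeR in mRNA libraries was the same under RLE and ERCC scaling, without the filter and without each library in turn. DESeq2 called 2 (Hoxb8 and Hoxb2, of 1615 genes in all). The replicate block called 4 (Hoxb2, Hoxa3, Hoxa9 and Hoxa10, adjusted p = 0.0394, 0.00924, 4.2e-05 and 0.0101), of 2870 genes in all against 624. Samples of the 2 groups share only a number, although same-numbered libraries deviated together (correlation 0.413 over genes in mRNA and 0.235 in total RNA libraries), so this is a hint from the data and not the design. ERCC scaling gave 170 calls in mRNA libraries, 154 of them lower, against 324 of 624 under TMM. Leaving out 1 library gave 602 to 815.

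In total RNA libraries edgeR with TMM called 446 genes, and no filter gave 724, DESeq2 199 and the block 870, with 0 Hox genes in each. ERCC scaling called 1 (Hoxa5), and moved the summed log2 ratios to -1.63 for Hoxa and -1.77 for Hoxb. In mRNA libraries it moved the Hoxb sum to -0.34 and turned Hoxb3 to -0.21, Hoxb4 to -0.19, Rxrb to -0.13, Kmt2a to -0.14, Kmt2b to -0.22, Asxl1 to -0.13 and Cd34 to -0.18, and in total RNA libraries Hoxa10 to -0.68. ERCC scaling moved the median of all genes to -0.38 in mRNA and -1.10 in total RNA libraries, so these sign changes go with a shift of all genes. The interaction called 0 genes, 111 with the replicate block of the sorted sample and 0 to 1 without 1 library. Per length of the principal transcript, Hoxa9 was at 33.4 and Hoxa7 at 20.4 CPM per kb in WT mRNA libraries.

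Over the fits without 1 library, these changed sign on the log2 scale: Hoxb3 (-0.094 to 0.52), Hoxc6 (-7.72 to 0.62), Hoxa6 (-0.59 to 0.27), Kmt2a (-0.41 to 0.62), Kmt2b (-0.19 to 0.36), Cbx1 (-0.14 to 0.084), Hoxaas3 (-0.56 to 0.065) and Hoxa7 (-0.24 to 0.075, total RNA). The lowest Hoxc6 value is fitted against Mut-labelled counts of 0 and is no bound. These fits assume that the lone library of a group varies like the others. The cause was not tested. Counts under 20 in some or all mRNA libraries limit Hoxb2, Hoxb7, Hoxb8, Hoxb9 and Hoxc6, and such counts also limit most total RNA values.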
